A study of Mus musculus with 16 samples.

Results

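The supply of thyroid hormone to a cell and its action there were followed through 7 genes in quadriceps muscle. They were *Dio2* and *Dio3*, *Slc16a10*, *Thra* and *Thrb*, *Ncor1*, and *Thrsp*. They were picked from the 41388 rows of the count table by gene symbol, and 1 row matched each of the 7. The choice was made with the rise of *Dio3* in tamoxifen-treated knockouts already known. Values of KO + TAM against KO are therefore given as a description, without a test, and *Dio3* is not tested in any comparison that uses the KO + TAM libraries.

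All mice were on a C57BL/6 background (the knockout line on C57BL6J) and were taken at postnatal day 36 per the labels, which the study's supplement puts a day earlier. WT mice were wild type and ate control chow. WT + TAM mice were wild type and ate chow with tamoxifen, a drug that binds estrogen receptors, at 40 mg/kg (the study's high dose) from day 21. *Mtm1* KO mice (KO below) carried a targeted deletion of exon 4 of *Mtm1*, which encodes the phosphoinositide phosphatase myotubularin, and ate control chow. KO + TAM mice carried the same deletion and ate the tamoxifen chow. Neither the deletion nor the drug was restricted to muscle. RNA was taken from frozen whole quadriceps, 4 libraries a group, and the study's text counts individual mice as replicates and calls the mice littermates. No source used here says which mice shared a litter. In such bulk tissue, fewer cells of a type and less RNA per cell cannot be told apart.

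Thyroid hormone leaves the gland mostly as the prohormone thyroxine. Type 2 deiodinase (*Dio2*) removes an outer-ring iodine and makes the active hormone triiodothyronine inside the cell, and type 3 deiodinase (*Dio3*) removes an inner-ring iodine and inactivates both forms. Carriers such as the monocarboxylate transporter encoded by *Slc16a10* move the hormones across the membrane, and the nuclear receptors encoded by *Thra* and *Thrb* bind triiodothyronine at their target genes together with retinoid X receptors. Without hormone the receptors hold corepressors such as NCOR1 at those genes. Skeletal muscle is a classical target, in which the hormone favours fast fibers, calcium pumping and heat production, and *Dio3* is known to be high in fetal tissue and in injured or regenerating adult tissue.

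The library labelled WT replicate 1 had *Mtm1* counts that went against its label and stands outside the comparisons, as does KO replicate 12. Neither was among the 14 libraries the study itself used. *Mtm1* counts were 74 in the library labelled WT replicate 1, against 369, 341 and 350 in WT replicates 2 to 4. They were 282, 459, 345 and 329 in WT + TAM, 76, 63 and 76 in KO replicates 9 to 11, 85 in KO replicate 12, and 53, 97, 93 and 92 in KO + TAM. *Mtm1* was lower in KO than in WT (log2 fold change −2.56, SE 0.17, adjusted *p* = 0.000214). The library labelled WT replicate 1 nevertheless had a summed level of 7 myoblast and regenerating fiber markers of 66.1 CPM (counts scaled to a common library size), where WT spanned 66.9 to 79.5 and KO 205 to 273. In KO replicate 12 that sum was 436. Both libraries also stood apart in some genes unrelated to the label. *Usp33* had 8.56 CPM in WT replicate 1 (22.1 to 26.2 CPM in WT) and 7.62 CPM in KO replicate 12 (15.6 to 22.9 CPM in KO). *Col3a1* had 580 CPM (2027 to 2303 CPM) and 447 CPM (1361 to 1936 CPM). Other genes, such as *Crym*, were within the ranges of their groups in both. Why these 2 libraries differ was not tested. The 14 libraries held between 25702605 and 29847222 counts each, and the 7 skeletal muscle markers (*Ckm*, *Acta1*, *Myh4*, *Myh1*, *Mb*, *Ttn* and *Des*) were abundant in each of them. Their sum was lower in KO and KO + TAM (67037 to 95027 CPM) than in WT and WT + TAM (113283 to 148471 CPM). Single markers went both ways in KO against WT, 4 with negative and 3 with positive values. The means of *Des* (2756 CPM in WT, 5338 CPM in KO), *Myh1* (3013 and 5811 CPM) and *Mb* (1703 and 2566 CPM) were higher in KO.

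The results turn on 3 genes, the 2 deiodinases and the transporter, and the bases just upstream of their start sites are shown so that a reader can see what kind of promoter each has. The sequences are the 250 bases before the RefSeq start site on assembly GRCm38.p6, on the gene's own strand. *Dio3* is at chr12:110279230-110281097 (plus strand) and its upstream bases are chr12:110278980-110279229. *Dio2* is at chr12:90724552-90739038 (minus strand), with chr12:90739039-90739288 upstream. *Slc16a10* is at chr10:40033532-40142270 (minus strand) and its window is chr10:40142255-40142504. That window precedes a start site inside the gene bounds given, so its last bases overlap them. Capitals mark TATAAA in the first 2 windows, TGACGTCA (a cyclic AMP response element) in that of *Dio2*, and GGGCGG (a GC box) in that of *Slc16a10*.
Dio3: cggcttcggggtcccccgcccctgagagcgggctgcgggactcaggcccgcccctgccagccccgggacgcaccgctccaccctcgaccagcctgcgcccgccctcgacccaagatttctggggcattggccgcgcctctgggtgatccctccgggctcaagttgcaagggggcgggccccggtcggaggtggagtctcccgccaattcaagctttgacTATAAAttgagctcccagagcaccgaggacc
Dio2: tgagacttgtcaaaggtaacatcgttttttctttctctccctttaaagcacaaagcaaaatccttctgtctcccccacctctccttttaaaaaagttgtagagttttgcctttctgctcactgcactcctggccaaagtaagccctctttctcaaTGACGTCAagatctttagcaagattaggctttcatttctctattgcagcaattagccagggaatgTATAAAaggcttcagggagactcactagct
Slc16a10: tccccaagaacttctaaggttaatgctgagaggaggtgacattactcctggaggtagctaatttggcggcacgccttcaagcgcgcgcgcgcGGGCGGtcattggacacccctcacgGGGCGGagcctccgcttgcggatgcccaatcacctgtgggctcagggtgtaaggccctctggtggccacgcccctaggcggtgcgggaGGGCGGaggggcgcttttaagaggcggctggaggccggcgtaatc
The motifs were picked with these sequences in view, and were searched on both strands in 32851 windows of the same length. TATAAA was present in 12.4% of all windows, TGACGTCA in 1.55% and GGGCGG in 32.7%. The *Dio3* window also held GGGCGG at 4 places, which are not in capitals. The letters AGGTCA, the half-site of the thyroid hormone response element, were in 14% of all windows and in none of these 3. The core palindrome of the estrogen response element, GGTCA and TGACC set 3 bases apart, was in 0.0639% of all windows and in none of the windows of the 6 matched genes. *Thra* was not matched.

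*Dio3* mRNA, which encodes the inactivating deiodinase, was at the edge of detection in untreated muscle and was highest in KO + TAM. Its counts were 3, 3 and 4 in WT (0.111, 0.127 and 0.156 CPM) and 5, 8 and 10 in KO (0.164, 0.262 and 0.318 CPM). They were 11, 15, 15 and 19 in WT + TAM (0.474 to 0.800 CPM), and 110, 78, 131 and 49 in KO + TAM (3.66, 2.34, 3.68 and 1.61 CPM). Over these 14 libraries the 4 groups did not overlap, in the order WT, KO, WT + TAM, KO + TAM. The 2 libraries set aside lay in the range of WT + TAM, with 10 counts (0.516 CPM) in the library labelled WT replicate 1 and 16 counts (0.581 CPM) in KO replicate 12.

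From KO to KO + TAM, *Dio3* went from 0.248 ± 0.0783 CPM (SD, *n* = 3) to 2.82 ± 1.02 CPM (SD, *n* = 4), an 11.1-fold difference (log2 fold change 3.48, SE 0.44). This is the contrast that chose the gene, and the values are a description. Of 15062 genes, 7.57% had groups that did not overlap in this contrast, and 3.55% were higher without overlap. *Dio3* was the only one of the 7 members without overlap. Pooled over the libraries, 368 counts against 23 gave a ratio of 11.4, with a 95% interval of 7.50 to 18.3 that covers counting error only. With KO replicate 12 included the log2 fold change was 3.08.

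In wild-type mice the same drug went with a *Dio3* level of 0.629 ± 0.134 CPM (SD, *n* = 4) against 0.131 ± 0.0229 CPM (SD, *n* = 3), a 4.64-fold difference in which all 4 treated libraries lay above all 3 controls, as those of 5.07% of 14544 genes did (11.6% did not overlap in either direction). This contrast uses no knockout library, so a test could be made. The log2 fold change was 2.21 (SE 0.51), and it did not pass the threshold of 0.01 used throughout (adjusted *p* = 0.104 in edgeR's quasi-likelihood test, 0.0331 to 0.493 over the alternatives). The highest of these came with the library labelled WT replicate 1 included, and the log2 fold change was then 1.51. Only 10 counts stand behind the WT level, so that the pooled ratio of 4.80 has a counting interval of 2.44 to 10.5. Whether the fold on tamoxifen differed between KO and WT was not tested, since one of the 2 contrasts chose the gene.

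Between the genotypes on tamoxifen, *Dio3* was 4.47-fold higher in KO + TAM than in WT + TAM (log2 fold change 2.16, SE 0.34), and against untreated WT it was 20.9-fold higher (log2 fold change 4.39, SE 0.48). Both are descriptions. In untreated mice the gene fell below the filter on low counts and was not tested. There 23 KO counts against 10 WT counts gave a ratio of 1.90 with a counting interval of 0.869 to 4.47, a difference that was not detectable at this depth. Of the 7 myoblast and regenerating fiber markers tested, 5 were positive and 2 negative in KO against WT, as in KO + TAM against WT + TAM. In each of these contrasts 4 were called, all higher, where 3.60% and 6.72% of all genes were called. *Pax7* went the other way, with a mean of 1.57 CPM in KO against 4.19 CPM in WT, and was not called. The sum of the 7 markers overlapped between KO (205 to 273 CPM) and KO + TAM (174 to 287 CPM). Their part in the *Dio3* values was not tested.

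**Figure D1:**
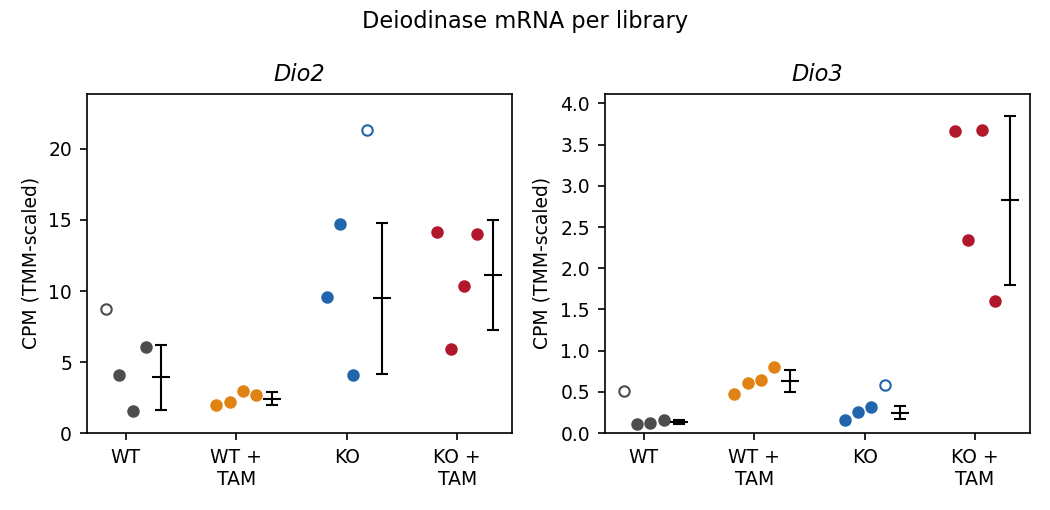
*Dio2* (left) and *Dio3* (right) in CPM, scaled by TMM factors, for each library by group. Filled points are the 14 compared libraries, open points are WT replicate 1 and KO replicate 12, and bars show the mean and SD of the filled points. *Dio3* in KO + TAM lies between 1.61 and 3.68 CPM, above every other library, whereas *Dio2* has its lowest mean and smallest SD in WT + TAM, with libraries between 1.98 and 2.94 CPM.

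*Dio2*, which encodes the activating deiodinase, was higher in the knockouts than in wild type among the treated mice. Its levels were 4.10, 1.57 and 6.09 CPM in WT, 1.98, 2.17, 2.94 and 2.65 CPM in WT + TAM, 9.59, 14.7 and 4.11 CPM in KO, and 14.2, 5.92, 10.4 and 14.04 CPM in KO + TAM. The KO + TAM libraries were all above the WT + TAM libraries, while WT and KO overlapped. On tamoxifen the knockouts had 11.1 ± 3.89 CPM (SD, *n* = 4) against 2.44 ± 0.439 CPM (SD, *n* = 4) in wild type. This 4.57-fold rise was called (log2 fold change 2.19, SE 0.28, adjusted *p* = 7.17e-04), and adjusted *p* was at most 0.00256 under every one of the 17 alternatives run. It was the only called member of the 6 tested in this contrast, in which 6.72% of 14563 genes were called and 3.42% were called higher.

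Without the drug the *Dio2* difference between KO (9.48 ± 5.32 CPM, SD, *n* = 3) and WT (3.92 ± 2.27 CPM, SD, *n* = 3) was smaller than the spread allowed a call (log2 fold change 1.30, SE 0.52, adjusted *p* = 0.134). Against untreated WT, KO + TAM had a log2 fold change of 1.50 (SE 0.41, adjusted *p* = 0.0278), which was not called either, though it passed with DESeq2, without the filter on low counts, or with scaling by library size alone. WT + TAM differed from WT by −0.70 on the log2 scale (SE 0.40, adjusted *p* = 0.583). From KO to KO + TAM the log2 difference was 0.22 (SE 0.39), with overlapping groups. *Dio2* overlaps an opposite-strand transcript, *Gm26512*, over 100 of its 5815 exon bases (1.72%), and the sources used here do not state whether the counting used strand.

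Set side by side per kilobase of transcript, in the deposited RPKM (reads scaled by transcript length and by library size), the 2 deiodinases were further apart in untreated muscle than on tamoxifen. The ratio of *Dio2* to *Dio3* RPKM was 12.96, 4.28 and 13.5 in WT and 20.5, 19.6 and 4.503 in KO. It was 1.46, 1.26, 1.61 and 1.16 in WT + TAM and 1.35, 0.882, 0.987 and 3.05 in KO + TAM. Both treated groups lay below both untreated groups without overlap, though the 3.05 of KO + TAM replicate 16 came near the lowest untreated ratio, 4.28. In the library labelled WT replicate 1 the ratio was 5.94 and in KO replicate 12 it was 12.9, both within the range of their untreated groups. In WT the ratios rest on the 3 or 4 *Dio3* counts of each library. No test is given, because *Dio3* in KO + TAM chose the gene.

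*Slc16a10*, the transporter of thyroid hormones and aromatic amino acids, was lower in the knockouts. WT libraries had 61.6, 68.1 and 56.4 CPM and KO libraries 30.4, 25.9 and 33.9 CPM, with no overlap. The KO level was 0.492 times that of WT (log2 fold change −1.02, SE 0.14, adjusted *p* = 0.00335), the only call among the 6 members tested in KO against WT. There 3.60% of 14740 genes were called and 1.69% were called lower. The call is near the threshold. Leaving out any one library other than KO replicate 11 put the adjusted *p* between 0.0105 and 0.0131. With the library labelled WT replicate 1 (31.6 CPM, within the KO range) and KO replicate 12 (24.1 CPM) included, the log2 fold change was −0.90 and the adjusted *p* was 0.0546.

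The KO + TAM libraries had 20.5, 28.0, 19.8 and 36.0 CPM of *Slc16a10* and WT + TAM 36.7, 41.0, 56.9 and 56.6 CPM. These groups came close without overlapping, as did those of *Dio2* and *Dio3* in this contrast, beside 22.5% of all genes. The difference missed the threshold (log2 fold change −0.87, SE 0.21, adjusted *p* = 0.0166). It was called with DESeq2, without the filter on low counts, in 1 fit over all 4 groups and without KO + TAM replicate 16 (log2 fold change −1.07, adjusted *p* = 0.00655). Against untreated WT the groups of *Slc16a10*, *Thra* and *Dio3* did not overlap, beside 31.3% of all genes. KO + TAM had 0.420 times the level (log2 fold change −1.25, SE 0.19, adjusted *p* = 0.00197), the only call among 6 members where 7.70% of 14942 genes were called and 4.14% were called lower. Including the library labelled WT replicate 1 ended that call too (−1.07, adjusted *p* = 0.0342). On the log2 scale WT + TAM differed from WT by −0.38 (SE 0.17, adjusted *p* = 0.456), which was not called. KO + TAM differed from KO by −0.22 (SE 0.20), a description with overlapping groups. The summed skeletal muscle markers were likewise lower in both knockout groups. Of the 7 markers, though, 3 were positive and 4 negative in KO against WT, as in KO + TAM against WT + TAM. The part of these markers in the *Slc16a10* values was not tested.

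*Thra*, the main thyroid hormone receptor gene of skeletal muscle, was a little lower in knockouts at a size the test did not call. It had 99.7, 96.5 and 116 CPM in WT, 69.3, 93.9 and 75.3 CPM in KO, 105, 85.6, 117 and 119 CPM in WT + TAM, and 89.8, 69.8, 62.2 and 74.1 CPM in KO + TAM. All KO libraries were below all WT libraries, and the treated groups overlapped. The log2 fold change was −0.36 (SE 0.15, adjusted *p* = 0.142) for KO against WT and −0.53 (SE 0.14, adjusted *p* = 0.0283) for KO + TAM against WT + TAM, the latter called by DESeq2 (−0.52). Scaling matters for changes of this size. When libraries were scaled by their size alone, all genes had a median of 0.33 in KO against WT in place of 0.02, and *Thra* stood at −0.05. *Thra* shares 263 of its 4614 exon bases (5.7%) with the clock repressor gene *Nr1d1* on the opposite strand. *Nr1d1* itself was not called in any tested contrast (KO against WT −0.20, adjusted *p* = 0.347).

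*Thrb*, which encodes the other receptor, was nearly constant in WT at 13.4, 13.4 and 13.6 CPM. KO libraries had 13.1, 7.50 and 10.1 CPM, WT + TAM 11.7, 18.9, 10.6 and 12.3 CPM, and KO + TAM 9.29, 9.76, 9.94 and 13.9 CPM. All 3 KO values were below WT by a margin that was small in 1 library (log2 fold change −0.37, SE 0.20, adjusted *p* = 0.251). It did not pass in the other contrasts either, with −0.01 (SE 0.20) for the drug in WT and −0.32 (SE 0.20, adjusted *p* = 0.305) for the genotype on the drug. Per kilobase, *Thra* exceeded *Thrb* in every library, by a median of 10.6 in WT (10.2 to 12.1), 13.3 in WT + TAM (6.43 to 15.6), 10.6 in KO (7.52 to 17.8) and 9.52 in KO + TAM (7.58 to 13.7), ranges that overlapped between all groups.

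*Ncor1*, the corepressor that unliganded receptors hold, was not called in any contrast. Its libraries spanned 103 to 105 CPM in WT and 100.7 to 112 CPM in WT + TAM. KO libraries had 88.8, 131 and 85.1 CPM, and KO + TAM libraries had 115, 88.9, 91.6 and 90.5 CPM. The log2 fold change was −0.00 (SE 0.17, 95% interval −0.34 to 0.33) in KO against WT and 0.06 (SE 0.09, 95% interval −0.12 to 0.24) in WT + TAM against WT. On tamoxifen the genotypes differed by −0.16 (SE 0.11, adjusted *p* = 0.351), a sign that flips to 0.11 with scaling by library size alone.

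**Figure D2:**
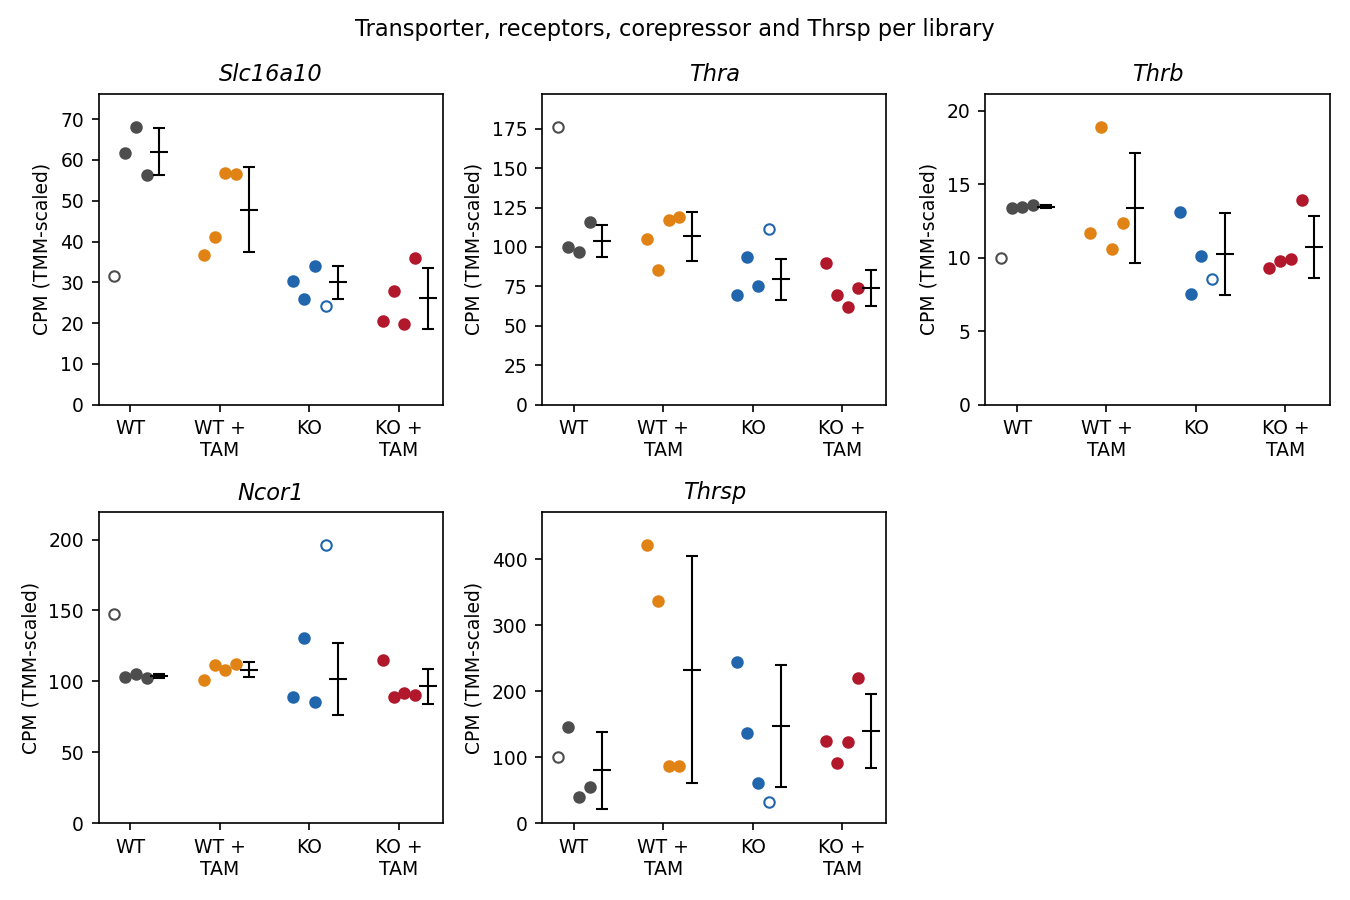
CPM scaled by TMM factors of *Slc16a10*, *Thra*, *Thrb*, *Ncor1* and *Thrsp* in each library by group. Filled points are the 14 compared libraries, open points WT replicate 1 and KO replicate 12, and bars the mean and SD of the filled points. *Slc16a10* separates KO (25.9 to 33.9 CPM) from WT (56.4 to 68.1 CPM), while *Thrsp* in WT + TAM spreads from 86.3 to 421 CPM.

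*Thrsp*, a thyroid hormone-responsive gene that promotes fatty acid synthesis and is most abundant in fat, lactating mammary gland and liver, varied widely within groups. It had 146, 39.1 and 54.3 CPM in WT, 421, 336, 87.5 and 86.3 CPM in WT + TAM, 245, 137 and 61.4 CPM in KO, and 125, 91.8, 123 and 220.2 CPM in KO + TAM. None of the contrasts was called, with log2 fold changes of 1.54 (SE 0.65, adjusted *p* = 0.445) for the drug in WT, 0.91 (SE 0.55, adjusted *p* = 0.304) for KO against WT and −0.73 (SE 0.48, adjusted *p* = 0.325) for the genotypes on the drug. Single libraries moved these values by over 1.5 times. Leaving 1 out gave 1.07 (without WT + TAM replicate 5) to 2.33 (without WT replicate 2) for the drug in WT. The range was 0.32 (without KO replicate 9) to 1.68 (without WT replicate 2) for KO against WT, and −0.28 (without WT + TAM replicate 5) to −1.04 (without KO + TAM replicate 16) for the genotypes on the drug. The 7 fat cell markers (*Adipoq*, *Plin1*, *Cidec*, *Cfd*, *Retn*, *Lep* and *Fabp4*) moved with it. None of them was at 0 in a group, and their sum ranged from 278 to 1913 CPM in WT, 785 to 3069 CPM in WT + TAM, 1048 to 1877 CPM in KO and 998 to 1478 CPM in KO + TAM. In each of the 4 groups the library with the most *Thrsp* also had the highest sum. Their part in the *Thrsp* values was not tested.

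**Figure D3:**
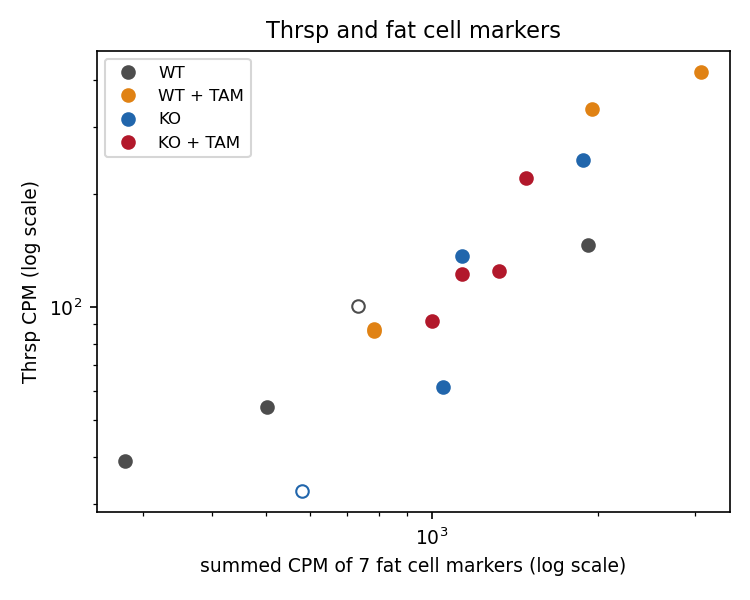
*Thrsp* CPM (vertical, log scale) against the summed CPM of 7 fat cell markers (horizontal, log scale), 1 point a library, with open points for WT replicate 1 and KO replicate 12. The WT + TAM library with 421 CPM of *Thrsp* has the highest marker sum, 3069 CPM, and the WT library with 39.1 CPM has the lowest, 278 CPM.

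Ranked per kilobase over the 14 libraries, *Thrsp* was the most abundant of the 7 (26.2 to 296 RPKM), followed by *Thra* (16.1 to 23.9 RPKM), with no overlap. *Ncor1* (7.03 to 11.98 RPKM) and *Slc16a10* (3.93 to 10.9 RPKM) came next and overlapped. Their order differed between the groups. *Slc16a10* lay above *Ncor1* in WT (9.73 to 10.9 against 7.03 to 7.67 RPKM) and below it in KO (5.63 to 7.01 against 7.41 to 11.98 RPKM) and in KO + TAM (3.93 to 7.19 against 7.62 to 9.29 RPKM), and the 2 overlapped in WT + TAM (6.10 to 9.63 against 7.04 to 8.06 RPKM). *Thrb* (1.34 to 2.67 RPKM), *Dio2* (0.231 to 2.98 RPKM) and *Dio3* (0.052 to 2.16 RPKM) were the lowest and overlapped each other.

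**Figure D4:**
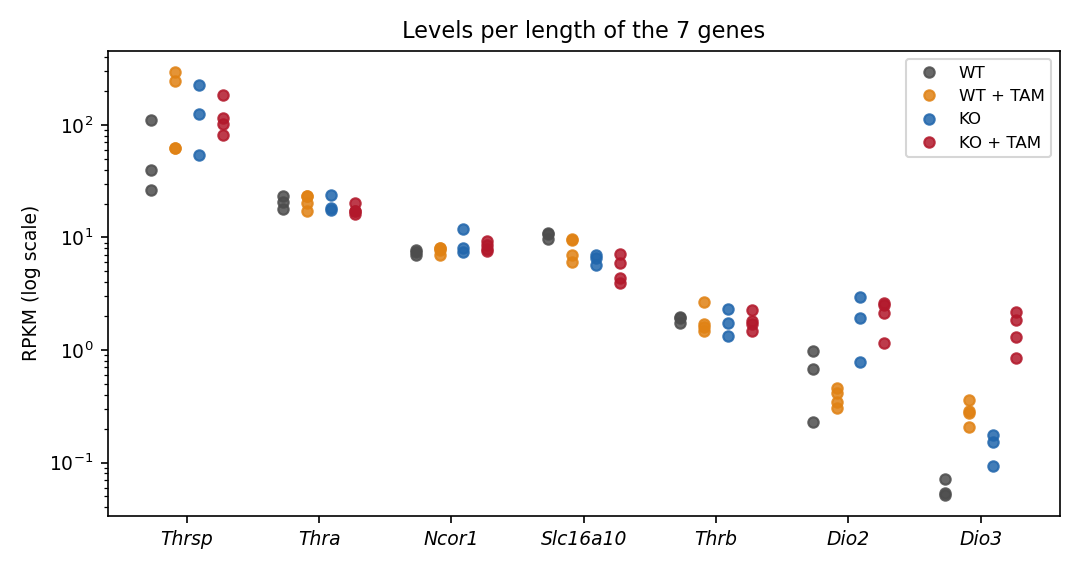
Deposited RPKM (log scale) of the 7 genes in the 14 libraries, coloured by group. *Dio3* spans the widest range, from 0.052 RPKM in WT to 2.16 RPKM in KO + TAM, while *Thra* stays between 16.1 and 23.9 RPKM.

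In WT + TAM against WT edgeR called 0 of the 7 members, and 0.131% of 14544 genes. DESeq2 called 0 members as well, and 3 members (*Dio3*, *Slc16a10* and *Thrsp*) had an unadjusted *p* of at most 0.05, as had 10.7% of all genes. In KO against WT 3 of the 6 tested members (*Dio2*, *Slc16a10* and *Thra*) had an unadjusted *p* of at most 0.05, beside 30.1% of all genes, and 3 of the 6 (*Slc16a10*, *Thra* and *Thrb*) had groups that did not overlap, all lower in KO, beside 36.2% of all genes and 17.5% lower. The 2 receptors and the corepressor stayed within 0.53 of no change on the log2 scale in all 5 comparisons, with TMM scaling.

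**Figure D5:**
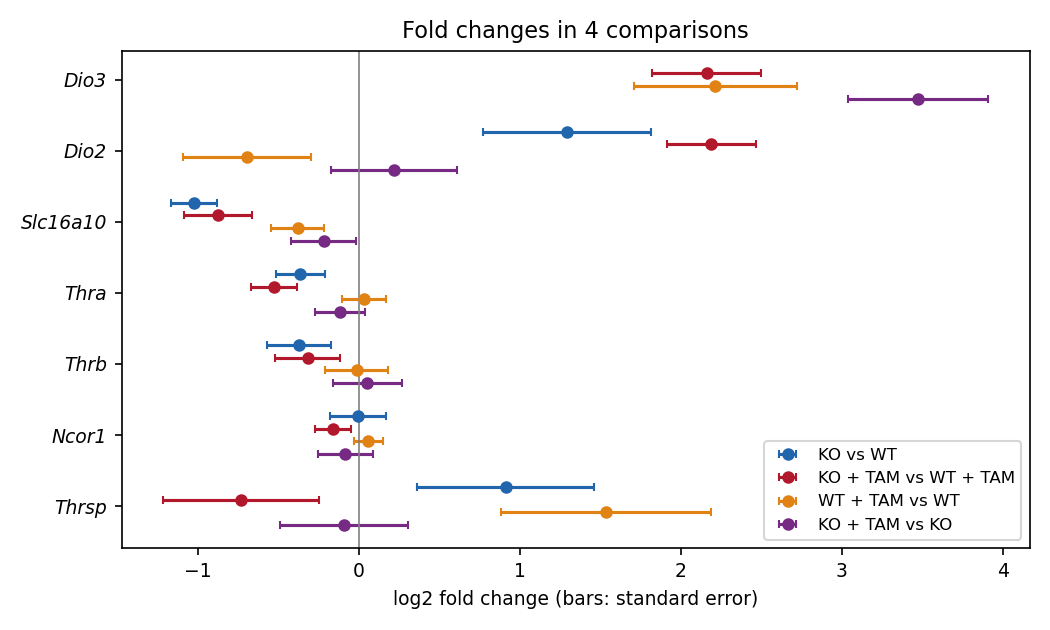
Log2 fold changes (points) with standard errors (bars) of the 7 genes in 4 comparisons; *Dio3* has no value for KO against WT, where its counts fell below the filter. *Dio3* stands at 3.48 for KO + TAM against KO and at 2.21 for WT + TAM against WT, *Dio2* at 2.19 for KO + TAM against WT + TAM, and *Slc16a10* at −1.02 for KO against WT.

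The wider pathway was read from lists of genes that share these roles. Of the 8 listed genes of deiodination found in the table, such as *Secisbp2*, needed to insert the selenocysteine of deiodinases, and *Wsb1* and *Usp33*, which tag and spare type 2 deiodinase, 6 were tested and edgeR called 0 in any of the 4 tested contrasts. Before adjustment, *p* was at most 0.05 for 2 of them in KO against WT (30.1% of all genes), 0 in WT + TAM against WT (10.7%), 2 in KO + TAM against WT + TAM (32.3%) and 3 in KO + TAM against WT (34.0%). DESeq2 called 0 in WT + TAM against WT and 2 (*Usp20* higher, *March6* lower) in each of the other 3, and with scaling by library size alone edgeR called *Usp20* in those 3. The share of all genes called under these alternatives is not given, here or below.

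Among 14 receptor partners and cofactors, those called in KO against WT were 2 retinoid X receptors, both lower, where 3.60% of all genes were called and 1.69% were called lower. *Rxrg* fell from 67.2 to 23.8 CPM (log2 fold change −1.47, SE 0.19, adjusted *p* = 0.00233) and *Rxra* from 140 to 82.3 CPM (−0.74, SE 0.13, adjusted *p* = 0.00774). Of these only *Rxrg* was called once both libraries set aside were added, and only *Rxrg* with scaling by library size alone. On tamoxifen all 14 had negative values in KO + TAM against WT + TAM, with a list median of −0.30 beside −0.01 for all genes tested. With scaling by library size alone, 7 were positive and 7 negative, beside a median of 0.27 for all genes. Of the 14, 4 were called, *Rxrg* (−1.63), *Rxra* (−0.90), the coactivator *Ncoa1* (−0.59) and *Rxrb* (−0.47), where 6.72% of all genes were. Scaling by library size alone left *Rxra* and *Rxrg* called. Against untreated WT, where 7.70% of all genes were called, KO + TAM had lower *Rxrg* (−1.49) and *Rxra* (−0.74) and higher *Crebbp* (0.48), which encodes a histone acetyltransferase. With the library labelled WT replicate 1 included, *Rxrg* alone was called. Scaling by library size alone kept *Rxrg* and *Crebbp* called in this contrast but not *Rxra*.

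Of 16 textbook target genes of the hormone, 15 were tested, and calls went both ways. In KO against WT edgeR called 1, where 3.60% of all genes were called. It was the mitochondrial glycerol-3-phosphate dehydrogenase gene *Gpd2*, which fell from 314 to 126 CPM (log2 fold change −1.29, SE 0.18, adjusted *p* = 0.00315). DESeq2 called *Gpd2* and 2 calcium pump genes in this contrast. *Atp2a1* was lower (mean 30169 CPM in WT, 17977 CPM in KO) and *Atp2a2* higher (123 CPM in WT, 202 CPM in KO). With both libraries set aside added, edgeR called no target. On tamoxifen 4 were lower in the knockouts, namely *Gpd2* (−1.64), the corepressor gene *Hr* (−1.36), the mitochondrial carrier gene *Ucp3* (−1.07) and the fast-fiber calcium pump gene *Atp2a1* (−0.90). In the same contrast 2 were higher, the slow-fiber calcium pump gene *Atp2a2* (1.05) and the sodium pump subunit gene *Atp1b1* (0.93). Of all genes, 6.72% were called there and 3.42% were called higher. The list median was −0.41 beside −0.01 for all genes. KO + TAM against untreated WT had 3 called, all lower (*Gpd2*, *Ucp3* and *Hr*, −1.20, −1.10 and −1.01), where 7.70% of all genes were called and 4.14% were called lower. With the library labelled WT replicate 1 included, 0 targets were called. In WT + TAM against WT edgeR called 0 genes of these 3 lists, whose medians lay between −0.13 and 0.13. There *p* before adjustment was at most 0.05 for 0 genes of deiodination, 3 cofactors and 4 targets, beside 10.7% of all genes. DESeq2 called 1 gene of these lists, *Crebbp*, higher.

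*Dio3* lies at one end of an imprinted domain of chromosome 12 whose other genes include *Meg3*, *Rian* and *Mirg*, long noncoding RNAs made from the maternal copy, and *Dlk1* and *Rtl1*, made from the paternal copy as *Dio3* is. In treated muscle the mean levels of these noncoding RNAs were higher too, in part short of the threshold. *Rian* had 90.4, 138 and 82.0 CPM in WT and 319, 177, 309 and 313 CPM in WT + TAM, groups that did not overlap (log2 fold change 1.43, SE 0.24), and its adjusted *p* of 0.0388 did not pass. All 6 tested genes of the domain list, which leaves out *Dio3* itself, had positive values in this contrast, with a median of 1.15 beside −0.00 for all genes. Of them edgeR called 0, with 3 at an unadjusted *p* of at most 0.05 (10.7% of all genes). DESeq2 called 3 (*Meg3*, *Mirg* and *Rian*), without a share of all genes called by DESeq2 to set beside them.

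In KO + TAM *Rian* had 353, 214, 180.2 and 185 CPM against 77.5, 141 and 79.6 CPM in KO (log2 fold change 1.22, SE 0.28, a description), and KO replicate 12 had 149 CPM. *Meg3* overlapped, with 105 to 198 CPM in KO + TAM and 57.8 to 118 CPM in KO. The 188 CPM of *Meg3* in KO replicate 12 lay within the KO + TAM range. Against untreated WT, KO + TAM had higher *Meg3* (log2 fold change 1.03, SE 0.22, adjusted *p* = 0.00863) and *Mirg* (1.95, SE 0.41, adjusted *p* = 0.00906), whereas *Rian* just missed the threshold (1.17, SE 0.26, adjusted *p* = 0.0111). DESeq2 and edgeR with scaling by library size alone called these 3 and *Dio3os*. Of all genes, edgeR called 7.70% in this contrast. With the library labelled WT replicate 1 included neither *Meg3* nor *Mirg* was called. Between the genotypes on tamoxifen edgeR and DESeq2 called 0 genes of the domain, with 1 at an unadjusted *p* of at most 0.05 (32.3% of all genes). There *Meg3* stood at 0.01 and *Rian* at −0.26. The protein-coding neighbour *Dlk1* had a value of −1.02 in KO against WT (SE 0.21, adjusted *p* = 0.0162) and of −0.03 in KO + TAM against WT. DESeq2 called *Dlk1* lower in KO against WT, the only gene of the domain list that it called there. *Rtl1* had at most 6 counts in any library and was not tested.

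The row named *Dio3os*, the antisense transcript of *Dio3*, had 7, 7 and 5 counts in WT, 30, 12, 5 and 11 in WT + TAM, 8, 10 and 17 in KO and 39, 26, 42 and 20 in KO + TAM. KO + TAM lay above KO without overlap (log2 fold change 1.36, SE 0.45, a description), a smaller difference than that of *Dio3*. Its difference in wild type was 1.28 (SE 0.66, adjusted *p* = 0.528). No exon of *Dio3* overlapped an exon of another gene in the GENCODE annotation, which lists *Dio3os* under another identifier than the deposited row. None of the 1981 stretches of 50 bases in *Dio3* transcripts occurs in a transcript of another gene.

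Over the 14 libraries and 15556 genes, those whose log2 CPM followed *Dio3* most closely were *Slco2a1*, a prostaglandin transporter gene (Pearson *r* = 0.919), *Greb1*, an estrogen-induced gene (0.909), *Mcl1*, which opposes apoptosis (0.906), *Lamb3*, a laminin subunit gene (0.900), and *Utp14a*, needed for ribosome assembly (0.899). *Slco2a1*, *Greb1*, *Mcl1* and *Lamb3* had the same order of group means as *Dio3*. *Utp14a* did not, with 15.1 CPM in KO and 14.8 CPM in WT + TAM. The means of *Greb1* were 0.189 CPM in WT, 0.195 CPM in KO, 0.650 CPM in WT + TAM and 1.36 CPM in KO + TAM. Those nearest to *Dio2* were the potassium channel gene *Kcnj2* (0.956), *Agrp* (0.951), *Endod1* (0.945), *Gm12295* (0.929) and *Gnpda1* (0.920). *Kcnj2* had 36.7 CPM in WT, 32.8 CPM in WT + TAM, 48.0 CPM in KO and 54.6 CPM in KO + TAM. The 2 deiodinases correlated at 0.399 with each other. These correlations are descriptions over libraries that share 4 groups, and the lists were chosen for their height among all genes.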

How the data were processed

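Libraries of total RNA from frozen quadriceps were built with an Illumina TruSeq kit. The authors aligned reads to GRCm38 and its transcriptome with STAR (2.5.0c per the submitters' notes) in 2 steps and counted them with HTSeq. They deposited raw counts and RPKM per gene for 16 libraries and 41388 genes. The notes also name bcl2fastq 2.17 and Cufflinks 2.2.1, without a role. For the annotation, the counting mode and the use of strand, nothing is given in the sources used here, and overlapping or antisense genes can therefore share counts. No 2 of the 16 libraries were identical (0 of 120 pairs).

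Counts of the 14 libraries in the study's own analysis (WT 2 to 4, WT + TAM 5 to 8, KO 9 to 11, KO + TAM 13 to 16) were fitted pair by pair with edgeR 4.0.16 in R 4.3.3. The fits used filterByExpr (count minimum 10, total minimum 15), TMM factors and the two-sided quasi-likelihood test, with Benjamini-Hochberg adjustment over all genes tested and a call at an adjusted *p* of at most 0.01. The SE is the absolute log2 fold change before edgeR's shrinkage toward 0, divided by the square root of the F statistic. The log2 fold changes printed are those after shrinkage, and 95% intervals use the normal approximation with this SE. Levels are CPM scaled by TMM factors over all 16 libraries, and RPKM, which the authors scaled by length, served to compare genes. Total counts were between 25702605 and 29847222. At that depth the 3 *Dio3* counts of a WT library come to 0.111 CPM, and such low values are limited by counting error. Alternatives were DESeq2 1.42.0, limma 3.58.1 on log2 RPKM plus 0.1 or 1, other scalings, filters and thresholds, 1 fit over all 4 groups, leaving out each library, and adding the 2 libraries set aside. Shares of all genes are those of the main edgeR fits, and none is given for the alternatives. The fitting code was tested on simulated data. Positions, upstream bases and overlaps came from RefSeq GRCm38.p6 and GENCODE vM21.

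The members and lists were chosen with earlier results of these data known. Genes named are the members, list genes called in a comparison, list genes beside a member in the genome, and the 5 genes most correlated with *Dio3* and with *Dio2*; other genes named among the calls of DESeq2 were chosen after their values were seen. Results for the list of further transporters are not reported here.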

Additional observations from a re-analysis of the deposited data

Results flagged for a closer look

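Of the 28 sets of 4 libraries (7 genes in 4 groups, all 16 libraries), 5 held a library far from the other 3 by Dixon's criterion, which chance alone meets in about 1 set in 20. The library labelled WT replicate 1 accounted for 3 of them. It had 0.516 CPM of *Dio3* where the other WT libraries had 0.111 to 0.156 CPM, 9.96 CPM of *Thrb* where they had 13.4 to 13.6 CPM, and 148 CPM of *Ncor1* where they had 103 to 105 CPM. This is the library whose *Mtm1* counts went against its label.

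In KO + TAM, replicate 16 had 13.9 CPM of *Thrb* beside 9.29 to 9.94 CPM in the other 3 libraries. Replicate 13 had 115 CPM of *Ncor1* beside 88.9 to 91.6 CPM in the others.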

How the results depend on the processing

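No paired analysis was possible because the 4 groups share no replicate numbers, and although the study calls the mice littermates, no source used here assigns libraries to litters. The number of members called in KO against WT (1) became 0 with WT replicate 1 and KO replicate 12 included and with limma on log2 RPKM plus 0.1 or plus 1, and was 0 to 1 when 1 library was left out. It was 0 without WT replicate 2, 3 or 4 or KO replicate 9 or 10. For KO + TAM against WT + TAM (1) it became 3 with DESeq2, 3 at an adjusted *p* of at most 0.05, 2 without the filter, 2 in 1 fit over all 4 groups, and 1 to 2 with 1 library left out, 2 without KO + TAM replicate 16. For KO + TAM against WT (1) it became 0 with WT replicate 1 included, 2 with library size only, with DESeq2 or without the filter, and 3 at an adjusted *p* of at most 0.05. For WT + TAM against WT it was 0 throughout.

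The log2 fold change of *Dio3* in KO + TAM against KO was 3.26 to 3.70 with 1 library left out, 2.72 with limma on log2 RPKM plus 0.1 and 1.13 plus 1, where a pseudocount above most values shrinks it by construction. No called value changed its sign under any alternative run. The WT levels of *Dio3* rest on 3 or 4 counts a library, so small differences there are beyond this depth. The causes of the other shifts were not tested.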
